A study of Homo sapiens with 8 samples.

Results

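The TOB and BTG antiproliferative family was described through the RFX7 binding sites listed near its 6 human genes, TOB1, TOB2, BTG1, BTG2, BTG3 and BTG4. A peak belonged to a gene when its summit, the position of highest signal, lay within 50 kb of either end of the gene on GRCh38. By this rule 3 of the 505 peaks listed after DMSO and 3 of the 622 peaks listed after Nutlin-3a belonged to the family, at 3 of the 6 genes. HCT116, a human colorectal carcinoma cell line, had been given 10 µM Nutlin-3a, which stabilises p53 by blocking MDM2, or its solvent DMSO for 24 h. Chromatin immunoprecipitation and sequencing (ChIP-seq) used 3 µg of an RFX7 antibody per precipitation, and each of the 4 groups (RFX7 ChIP and input chromatin under each treatment) had 2 samples. Nothing in the labels says whether these came from separate cultures. Each treatment came as 1 list of peaks without values per sample. Replicate error was therefore unknown, and no test of a treatment difference was made. Read depth per sample was unknown.

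TOB and BTG proteins share an amino-terminal APRO domain, through which they bind the CNOT7 and CNOT8 deadenylases of the CCR4-NOT complex and speed the removal of poly(A) tails from mRNA. TOB1 and TOB2 also bind poly(A)-binding protein through their longer carboxy-terminal part. The family slows the passage of cells from G1 to S phase, BTG2 is a known direct target of p53, and BTG4 acts mainly in oocytes. RFX7 is a winged-helix transcription factor, and RFX proteins bind the X-box, an inverted repeat of a short half-site.

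RFX7 peaks were listed at TOB1, TOB2 and BTG2, and each was present under both treatments. BTG1, BTG3 and BTG4 had none within 50 kb in either list. The family count was thus 3 of 6 genes in the DMSO list, against 2.03% of 20056 protein-coding genes measured the same way. It was 3 of 6 in the Nutlin-3a list, against 3.04%, and 3 of 6 in both lists together, against 1.7%. Members were chosen with earlier results of these data known, so the counts are a description. The peaks at TOB1 and TOB2 lay within 2 kb of the gene start, whereas the BTG2 peak lay far downstream of the gene. With a limit of 5 kb or 10 kb, TOB1 and TOB2 kept their peaks and BTG2 did not. The shares of all coding genes were then 0.763% (DMSO) and 1.08% (Nutlin-3a) at 5 kb, and 0.917% and 1.32% at 10 kb.

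**Figure D1:**
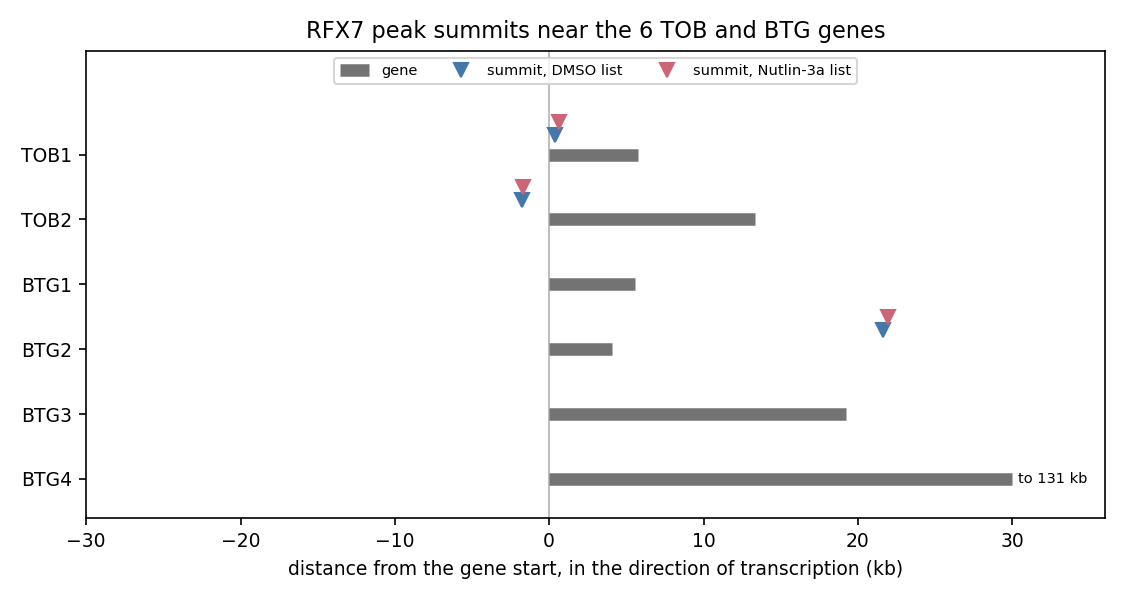
Summits of RFX7 peaks around the 6 TOB and BTG genes, with the horizontal axis giving distance from the gene start in kb along the direction of transcription. Grey bars are the genes, and blue and red triangles are summits of the DMSO and Nutlin-3a lists. TOB1 and TOB2 have summits beside the start, BTG2 has them about 22 kb beyond it, and BTG1, BTG3 and BTG4 have none.

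Start regions are shown because the TOB peaks lay beside them, yet none of the 7 start windows of the family (250 bases before to 50 after a RefSeq start, GRCh38.p14) was touched by a peak. All 6 genes matched the RefSeq table, TOB1 with 2 starts. The window of the distal TOB1 start lay 150 bp from the peaks of both lists, and the TOB2 window lay 1276 bp from the DMSO peak and 1212 bp from the Nutlin-3a peak of that gene. Their upstream 250 bases are printed, for TOB1 at chr17:50867979-50868228 and for TOB2 at chr22:41446802-41447051, both read on the minus strand. Neither stretch held the half-site as GTTGCC or GTTNCC (N being any base) on either strand, so no letters are in capitals. Other forms of the X-box half-site were not searched.

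TOB1 distal start: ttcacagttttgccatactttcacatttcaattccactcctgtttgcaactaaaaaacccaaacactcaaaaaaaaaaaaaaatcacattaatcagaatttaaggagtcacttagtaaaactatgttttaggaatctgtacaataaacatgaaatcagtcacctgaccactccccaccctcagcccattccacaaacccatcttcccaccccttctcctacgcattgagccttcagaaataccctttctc

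TOB2 start: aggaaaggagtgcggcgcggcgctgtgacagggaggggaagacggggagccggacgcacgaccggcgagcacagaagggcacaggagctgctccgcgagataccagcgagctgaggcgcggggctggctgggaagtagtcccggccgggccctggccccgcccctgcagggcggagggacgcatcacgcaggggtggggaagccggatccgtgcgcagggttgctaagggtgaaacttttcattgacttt

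The half-site was searched as GTTGCC on either strand, which 12.2% of all 35116 start windows held and 0 of the 7 family windows held. The looser form GTTNCC was held by 45.4% of all windows and by 2 of the 7, those of BTG2 and BTG4. Each match is shown in 30 bases with the matched letters in capitals. In BTG2 (chr1:203305527-203305556, plus strand) the match was on the reverse strand and began 21 bases into the transcript. In BTG4 (chr11:111512605-111512634 and chr11:111512535-111512564, minus strand) matches began 236 and 166 bases before the RefSeq start at 111512386 on which its window was built. That start lies inside the gene, whose outermost end on that side is 111514725.

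BTG2 start: agcagcggccagGGTAACgctgtcttgtgg

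BTG4 first match: cctcccgctcagGTTCCCctcgcttttcct

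BTG4 second match: cgccaggcttcaGTTCCCagccccaaaccc

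A pair of facing half-sites separated by 0 to 3 bases, GTTNCC followed by GGNAAC, was in 0.740% of all windows and in 0 of the 7. BTG2 had the looser letters in its start window and a listed peak, but the peak lay 21489 bp (DMSO) and 21104 bp (Nutlin-3a) from that window. BTG1 and BTG3 had neither. BTG4 had the letters and no peak within 5 Mb, and TOB1 and TOB2 had peaks and no such letters in their windows. The letters under the peaks themselves were not analysed here. Among windows that a peak did overlap, 25% of 76 (DMSO) and 31.2% of 138 (Nutlin-3a) held GTTGCC. The shares of those windows with the looser form, 48.7% and 52.9%, and with facing half-sites, 0 of 76 and 1 of 138, were near those of all windows. The base composition of the TOB1 starts also differed: the distal window, nearer the peak, was 41.3% G or C and the proximal one 78.7%, against a median of 58.7% over all windows.

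TOB1 is the founding TOB protein, an adaptor that joins poly(A)-binding protein to the deadenylase. Its gene lies on chromosome 17 from 50862223 to 50867978 on the minus strand. The DMSO peak covered chr17:50867381-50867779, and its summit stood within the gene, 406 bp downstream of the start. The Nutlin-3a peak covered chr17:50867298-50867779, with its summit 664 bp from the start. Both thus lay between the distal RefSeq start at 50867978 and the proximal one at 50866354, and both also fell inside the antisense long non-coding RNA gene TOB1-AS1 (50866679 to 50868371). The authors' fold enrichment was 6.09 under DMSO, rank 65 of 505, and 8.02 under Nutlin-3a, rank 64 of 622. Its −log10 q, the significance the peak caller gave it after correction over the genome, was 31.2 and 65.4. The nearest other peak of the same list on the chromosome was 8464010 bp away under DMSO and 6038273 bp away under Nutlin-3a, so TOB1 had a single isolated site.

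TOB2, its closest relative, is also a deadenylation adaptor. The gene spans 41433494 to 41446801 on the minus strand of chromosome 22, and its peaks were upstream of it, outside any protein-coding gene. The DMSO peak covered chr22:41448327-41448745 and its summit lay 1778 bp before the start. The Nutlin-3a peak covered chr22:41448263-41448823 and its summit lay 1706 bp before the start. The fold enrichment was 15.5 (rank 7 of 505) after DMSO and 20.9 (rank 11 of 622) after Nutlin-3a, placing TOB2 in the top 1.39% and 1.77% of peaks. The −log10 q was 108 and 125. As at TOB1, both summits fell inside a long non-coding RNA gene beside the start, here LOC105373043 (41446945 to 41448893), and such genes held the summit of 7.13% of DMSO and 6.75% of Nutlin-3a peaks. The next peak of the same list on the chromosome was 4618528 bp and 4618408 bp away.

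BTG2 is induced by p53 and slows G1 to S passage. The gene spans 203305519 to 203309602 on the plus strand of chromosome 1. The DMSO peak covered chr1:203327057-203327786 and its summit lay 17559 bp beyond the gene's far end, or 21642 bp from its start. The Nutlin-3a peak covered chr1:203326672-203327963, with its summit 17859 bp beyond that end and 21942 bp from the start. No coding or non-coding gene of the table covered either summit, and FMOD, which encodes the extracellular matrix protein fibromodulin, was nearer than BTG2, at 13467 bp and 13167 bp. The assignment to BTG2 therefore rests on the 50-kb rule alone. The −log10 q was 174 (rank 21 of 505) and 240 (rank 13 of 622), the highest of the family in each list. The fold enrichment was 4.05 (rank 152) after DMSO and 29.9 (rank 3) after Nutlin-3a.

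**Figure D2:**
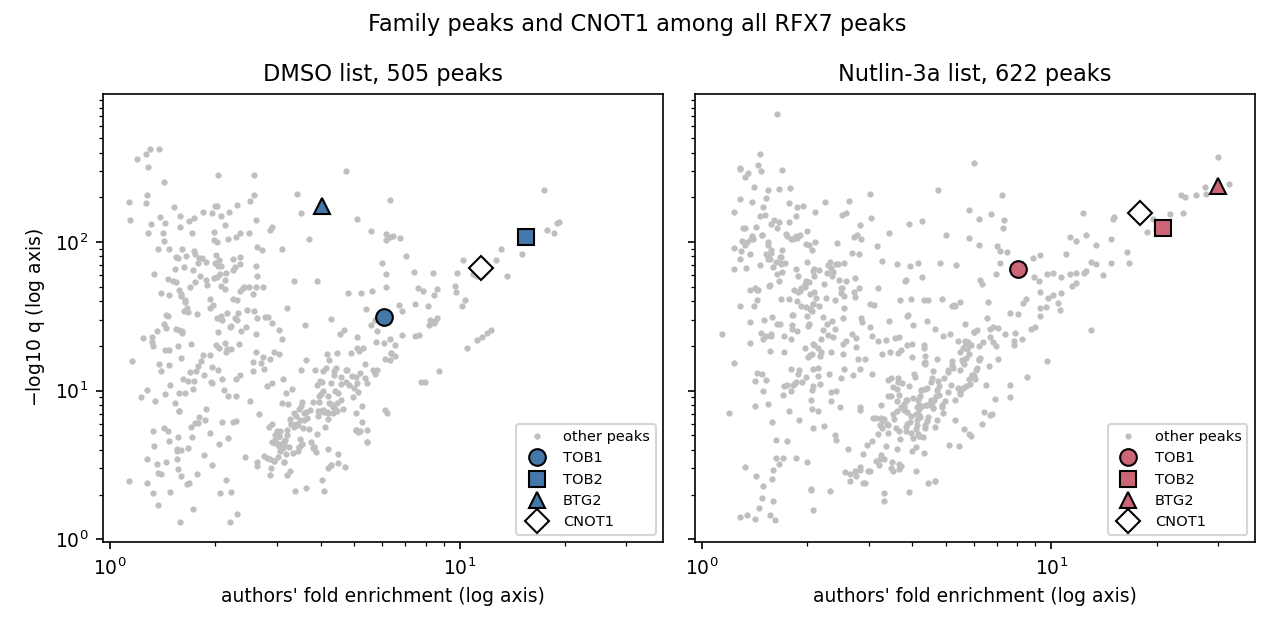
Each point is a peak, with the authors' fold enrichment on the horizontal and −log10 q on the vertical axis, both logarithmic, and 1 panel per list. TOB1, TOB2 and CNOT1 lie on the same arm of the cloud in both panels, while BTG2 lies at a fold of 4.05 in the DMSO panel and 29.9 in the Nutlin-3a panel.

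The order of the 3 genes depended on the column. By −log10 q it was BTG2, TOB2, TOB1 in both lists. By fold enrichment it was TOB2, TOB1, BTG2 under DMSO and BTG2, TOB2, TOB1 under Nutlin-3a. The columns of the BTG2 entries were not alike. MACS2, which the submitters' processing notes name, defines the fold as the ChIP pileup plus 1 over the background plus 1 and takes p from the Poisson tail, so fold and p together give the pileup at 1 position. The BTG2 entry of the Nutlin-3a list gave a whole-number pileup of 218 over a background of 6.32 reads. Its DMSO entry gave no whole number but 632 over 155. The fold and p of that entry therefore need not belong to 1 position. Which of its columns is affected cannot be told, so its DMSO fold, its −log10 q and its ranks by either carry this doubt. The TOB1 DMSO entry gave a whole number, 77 over 11.8. The TOB1 Nutlin-3a entry and both TOB2 entries did not, so the same limit holds for their folds and −log10 q values. Whether it extends to the summits of such entries cannot be told. In the whole lists 401 of 505 and 399 of 622 entries gave a whole number.

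Within the family the DMSO peak was always contained in the Nutlin-3a peak. The same held at CNOT1 and CDK4, described below, but not for every pair at CCND1 and CDKN1B. How often it held over all overlapping peaks was not counted. The shared stretch was 399 bp at TOB1, which was 82.8% of the Nutlin-3a peak. It was 419 bp (74.7%) at TOB2 and 730 bp (56.5%) at BTG2. Summits were 72 bp apart at TOB2, 258 bp apart at TOB1 and 300 bp apart at BTG2. Each pair included an entry without a whole-number pileup, so these gaps may carry the same doubt. The TOB1 Nutlin-3a summit stood 16 bp from the edge of a 482-bp peak. All 3 genes had a wider peak and a higher −log10 q in the Nutlin-3a list, and so did most sites: over the 352 pairs of peaks that overlapped best between the lists, 288 were wider and 268 (76.1%) had the higher −log10 q in the Nutlin-3a list. The −log10 q also depends on sequencing depth, so no direction of binding is drawn from it.

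**Figure D3:**
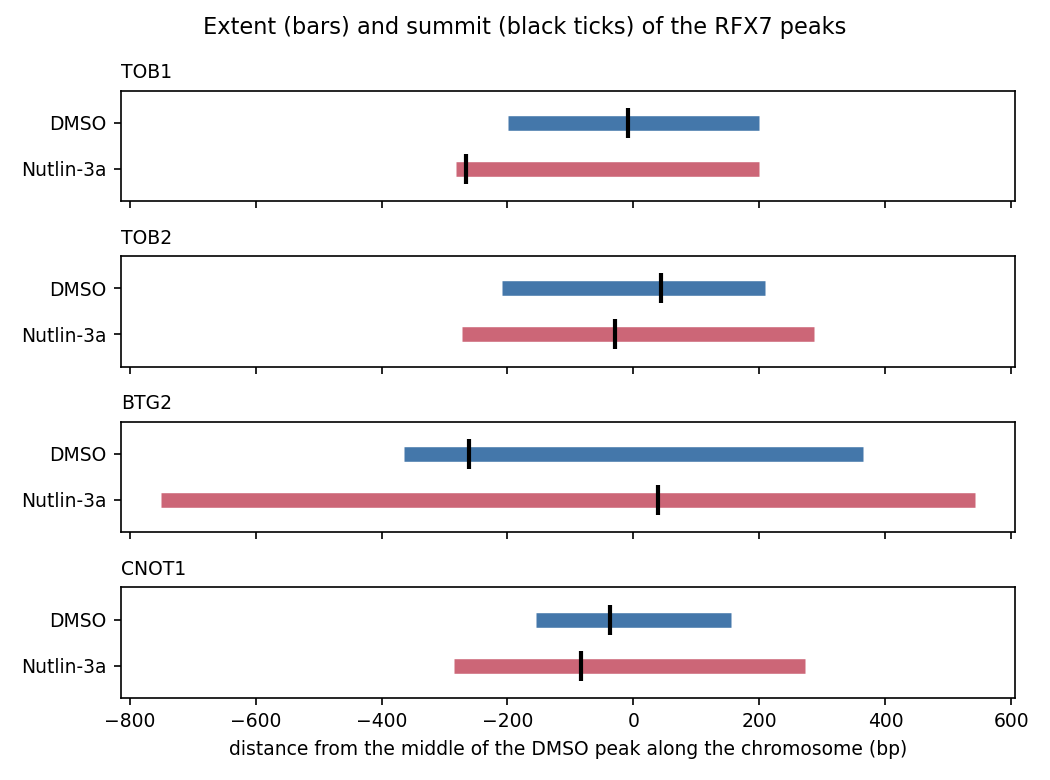
Extent of the peaks at TOB1, TOB2, BTG2 and CNOT1 in bp from the middle of the DMSO peak along the chromosome, with blue bars for the DMSO and red bars for the Nutlin-3a list and black ticks for summits. Each red bar contains the blue bar, and the summits are closest at CNOT1 (46 bp) and TOB2 (72 bp).

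The remaining 3 genes, without a listed peak, were all far outside the 50-kb limit, while BTG2 was inside it by the smallest margin of the family. BTG1, the closest relative of BTG2, lies on chromosome 12 from 92140278 to 92145846, and the nearest summits were 758802 bp (DMSO) and 758916 bp (Nutlin-3a) away. That site was itself 198659 bp and 198545 bp from the nearest coding gene, DCN. BTG3 lies on chromosome 21 from 17593653 to 17612901. Its nearest DMSO summit was 2529892 bp away, inside NRIP1, and its nearest Nutlin-3a summit was 7267813 bp away. BTG4 lies on chromosome 11 from 111383826 to 111514725, and the nearest summits were 16129400 bp away under DMSO, with SESN3 as the closest gene, and 5813162 bp away under Nutlin-3a, inside CEP164. A site below the authors' threshold would not be listed, and the listed −log10 q values began at 1.31 (DMSO) and 1.36 (Nutlin-3a).

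The partners of the family were examined with the same 50-kb rule. Of 12 CCR4-NOT genes 1 had a peak, in both lists, against 1.7% of all coding genes: CNOT1, the scaffold on which the complex is built. The CNOT1 gene spans 58519951 to 58629826 on chromosome 16. Its DMSO peak (chr16:58629808-58630118) had its summit 99 bp outside a gene end, a fold of 11.5 (rank 15 of 505) and a −log10 q of 66.8. Its Nutlin-3a peak (chr16:58629678-58630235) had its summit 53 bp outside that end, a fold of 17.9 (rank 17 of 622) and a −log10 q of 157. In fold rank CNOT1 stood between TOB2 and TOB1 in each list. But neither CNOT1 entry gave a whole-number pileup, so its folds, −log10 q values and ranks carry the same doubt as those of TOB2. The deadenylases CNOT6, CNOT6L, CNOT7 and CNOT8, of which CNOT7 and CNOT8 are the ones the family binds, had no peak. Nor did any of 7 other deadenylation and poly(A)-binding genes (PAN2, PAN3, PARN, NOCT, TOE1, PABPC1 and PABPC4) or of 7 genes listed from memory as partners (CPEB3, CPEB4, PRMT1, HOXB9, CAPRIN1, SMAD1 and SMAD4). A Nutlin-3a summit lay 50165 bp from PAN2, just outside the limit, so 1 of those 7 deadenylation genes would count at 100 kb. At that distance 4.88% of all coding genes had a summit in the Nutlin-3a list. In lists this short, nothing is read from 1 of 12 or 0 of 7 beside the shares of 2.03% (DMSO) and 3.04% (Nutlin-3a) over all genes.

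Of 8 genes that control the G1 to S step on which the family acts, 3 had a DMSO peak and 4 had a Nutlin-3a peak, against 2.03% and 3.04% of all coding genes. CCND1, which encodes cyclin D1, had 4 DMSO and 3 Nutlin-3a entries, the highest −log10 q being 61.4 and 111, with summits 2586 bp and 2427 bp from a gene end. CDK4, the kinase partner of cyclin D1, had 1 entry per list, with a −log10 q of 11.3 and 27.97 and summits 207 bp and 163 bp before its start. CDKN1B, which encodes the inhibitor p27, had 4 and 5 entries with a −log10 q of at most 7.30 and 12.2. CCNE1, which encodes cyclin E1, had an entry in the Nutlin-3a list alone, 17389 bp from a gene end, with a −log10 q of 22.2. CDK6, RB1, E2F1 and CDKN1A had none. The −log10 q of every one of these entries was below those of TOB2 and BTG2 in the same list. But the highest CCND1 entry of each list and both CDK4 entries gave no whole-number pileup. This order therefore carries the same doubt as the −log10 q values of TOB2.

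Genes most like each promoter-proximal member were sought by the pair of rank percentiles of fold enrichment in the 2 lists, over the 125 other coding genes with a summit within 5 kb in both. TOB1 stood at percentiles 12.9 and 10.3. Its nearest were TSPYL2 and GPR173, which share 1 peak (13.7 and 8.20), and PIK3IP1 (13.9 and 12.9). TOB2 stood at 1.39 and 1.77, and its nearest were KDM4A (1.58 and 1.29), CKS2 (1.19 and 2.41) and FANCG (1.98 and 1.45). With 2 lists and many peaks close in rank, this likeness is a description only.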

How the data were processed

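RFX7 ChIP and input libraries of HCT116 cells were deposited as 1 peak list per treatment. Per the submitters' processing notes, tools included bcl2fastq 2.20.0.422, cutadapt 2.10, Trimmomatic 0.39, SAMtools 1.10, Picard, MACS2 2.2.7.1 and bedtools 2.29.2 with build hg38. The aligner and any pooling of replicates are not given in the sources used here. The deposited fold enrichment is a ratio per peak and served only for description and ranking inside its own list. Values of −log10 p and −log10 q were deposited by the authors. The deposited score equals the −log10 q times 10, rounded down, in 503 of 505 and 621 of 622 entries.

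Distances ran from the summit to either end of each of 20056 protein-coding RefSeq genes (GRCh38.p14). Pileup and background were solved from fold and −log10 p, with a whole number taken within 0.02 reads, after a check on 300 artificial pileups with known answers. Peaks were paired by at least 1 bp of overlap. Python 3.11.15 and pandas 2.3.3 were used. Members, gene lists and rules were chosen with earlier results of these data known. Named were the members, their entries or nearest entries, listed genes with a summit within 50 kb, and the 3 genes nearest in rank percentile to each member with a summit within 5 kb in both lists. Alternatives changed distance, threshold, position, overlap, ranking column and motif.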

Additional observations from a re-analysis of the deposited data

How the results depend on the processing

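Of 41 alternative values, 27 stayed within 1.5 times the main value. The family count of 3 genes per list became 2 at 5 kb and at 10 kb, through the loss of BTG2. It stayed 3 at 25 kb and at 100 kb. Over all coding genes the share rose from 0.763% (DMSO) and 1.08% (Nutlin-3a) at 5 kb to 3.21% and 4.88% at 100 kb. The family count also stayed 3 at −log10 q of at least 5 or 10, with peak midpoints and with the gene start alone. These last settings could not have changed it. The lowest family −log10 q was 31.2, and family summits lay at most 21942 bp from the gene start. The members without a peak lay at least 758802 bp from any summit. With summits within 100 bp required, 1 of the 3 pairs was shared, though each pair included an entry without a whole-number pileup. The share of all overlapping pairs that met this limit was not counted. Ranking by −log10 q instead of fold moved TOB1 from 65 to 177, TOB2 from 7 to 56 and BTG2 from 152 to 21 in the DMSO list, and TOB1 from 64 to 157, TOB2 from 11 to 65 and BTG2 from 3 to 13 in the Nutlin-3a list. Ranking by −log10 p gave 179, 56 and 21, and 157, 66 and 13. Family windows with a half-site went from 0 with GTTGCC to 2 with GTTNCC. The search of the peaks themselves was not run, since genome sequence was not used here. No paired analysis was possible because the lists hold no values per replicate, and no replicate could be left out. Depth per sample was unknown, so a site missing from a list was not detected at that depth.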
